A study of Mus musculus with 8 samples.

Results

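The genes described are the translation factors and aminoacyl-tRNA synthetases of mouse brain, taken by symbol: names that begin with Eif or Eef and a digit, and names of 1 letter followed by ars, with or without a final 1 or 2. The rule found 64 genes with 94 probes, among 8653 named genes with 12131 probes. Values on all 8 arrays were held by 63 of the 64 genes, against 8107 of all named genes. The remaining gene, Eif4ebp3, had a value on 7 arrays, with a mean log2 ratio of -0.42, and was not tested. By role, 32 are initiation factor genes, 3 encode regulators that carry an Eif name (Eif2ak2, Eif4ebp1, Eif4ebp3), 6 are elongation factor genes, 3 encode methyltransferases of eEF1A (Eef1akmt1, Eef1akmt4, Eef1aknmt), and 20 are synthetase genes, of which 14 act in the cytosol and 6 in mitochondria.

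Whole brain RNA from 4 male mutant mice, 19 weeks old, was set against brain RNA of wildtype males, also 19 weeks old, combined in 1 pool. The genotype is written ADAR-/-/GluR-BR/R: the mice lack ADAR2, the RNA-editing deaminase encoded by Adarb1, and carry Gria2 alleles for the arginine form of the GluR-B receptor subunit. The wildtype pool carries neither change, so the loss of ADAR2 and the receptor allele cannot be told apart. Each mouse was run on 2 cDNA arrays, once with the mutant RNA labelled Cy5 and once Cy3, here the Cy5 arrays and the Cy3 arrays. Replicates are therefore mice (n = 4).

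Translation starts when initiation factors bring the first tRNA, the small ribosomal subunit and the capped mRNA together. Elongation factors then deliver each loaded tRNA and move the ribosome along, while synthetases load every tRNA with its amino acid. In the brain, translation is adjusted at the step of eIF2 and its exchange factor eIF2B, and mutations in human eIF2B subunits cause a disease of white matter. Mutations in several human synthetases, the glycyl enzyme among them, cause disease of peripheral nerves.

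The values are log2 ratios of the 2 channels, given here relative to each array's median. The labels do not say which channel is the numerator, so 2 quantities were formed per mouse. The mean ratio averages both arrays of each mouse. It holds the contrast between mutant and pool, of unknown direction, where ratios have the same numerator RNA on every array. Where every ratio is Cy5 over Cy3 instead, that contrast cancels in the mean ratio, and its calls are then no difference between mutant and pool. The swap component takes the Cy5 array less the Cy3 array, divided by 2. It is mutant over pool where every ratio is Cy5 over Cy3, and in the other case the contrast cancels in it. Both were tested against 0 over all 8107 genes with limma, Benjamini-Hochberg adjustment and a threshold of 0.05, which is what "called" means below. Errors written after ± are limma's moderated standard errors over the 4 mice. Of the 3 probes of Adarb1, the swap component was -0.10, -1.23 and -1.33 (limma adjusted p = 0.628, 0.0383 and 0.0424) and the mean ratio 0.12, 0.70 and 0.26 (adjusted p = 0.621, 0.0226 and 0.653). Arrays of one orientation correlated at r = 0.22 to 0.40 (Cy5) and 0.43 to 0.68 (Cy3) over all probes, and arrays of opposite orientation at 0.15 to 0.41. Mice 1 and 2 resembled each other (r = 0.37 on the Cy5 and 0.68 on the Cy3 arrays), as did mice 3 and 4 (0.40 and 0.58), more than mice across these pairs (0.22 to 0.29 and 0.43 to 0.52). The labels name no batch, and the tests treat the 4 mice as independent. Ratios carry no level, so the markers of brain cell types could be read only as ratios. Median log2 ratios of 6 neuron markers were 0.27 to 0.54 on the Cy5 arrays and 1.13 to 1.63 on the Cy3 arrays, and 5 of the 6 were called positive in the mean ratio. Of all genes 20.6% were called positive and 12.4% negative in that quantity. Astrocyte markers were called positive in 3 of 6 cases, oligodendrocyte markers in 2 of 4, the single endothelial marker was positive, and microglia and blood markers split, 1 positive and 2 negative of 5 and of 3. The part of these markers in the results was not tested, and in whole brain RNA fewer cells of a type and less RNA per cell cannot be told apart.

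Promoter sequence was available for 47 of the 64 genes (RefSeq, GRCm38.p6, 250 bases before to 50 after the annotated start). The element TGATGNAA, read on either strand and so also as TTNCATCA, is the C/EBP-ATF response element through which ATF4 acts on amino acid response genes. It stood in 5 of 14 synthetase promoters (35.7%) and in 1 of 26 initiation factor promoters, against 2.95% of the promoters of all named array genes (207 of 7009) and 4.51% of all promoters in the table. The matches are shown because synthetase genes that share them took opposite signs in the values given further on. Each is printed in its gene's direction with 8 bases on either side and the element in capitals.
Aars, first match, chr8:111033722-111033745, plus strand: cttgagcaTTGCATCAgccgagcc
Aars, second match, chr8:111033843-111033866, plus strand: gggtcactTTTCATCAgagcgctc
Gars, chr6:55037963-55037986, plus strand: ctgcgctaTTTCATCAtgcaccgg
Iars, chr13:49682129-49682152, plus strand: tgtcagtaTTGCATCAcctccaga
Tars, chr15:11399658-11399681, minus strand: gagtcccgTTGCATCAgctggtta
Yars, chr4:129189898-129189921, plus strand: agctcagcTGATGCAAcccgacgg
Eif2s3x, chrX:94212732-94212755, minus strand: gccatcatTTTCATCAggtctatg

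Messages of elongation factors are known for a pyrimidine tract at their first bases, through which mTOR signalling governs their translation. A run of C and at least 4 further pyrimidines lay somewhere in a window of 30 bases that begins 5 bases before the annotated start in 3 of 4 elongation factor genes, against 38.5% of all promoters in the table. A stricter rule asked for a C exactly at the annotated start base, followed by at least 4 pyrimidines. It was met by none of the 4, although the run of Eef1a1 spans its start base, and by 2 of 26 initiation factor genes (Eif2s3x and Eif3f), against 3.01% of all promoters in the table. The windows are shown for the elongation factors and for those initiation factor genes, with the run in capitals. RefSeq starts can lie off the start used in brain.
Eef2, chr10:81176626-81176655, plus strand: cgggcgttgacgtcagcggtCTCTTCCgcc
Eef1a1, chr9:78481700-78481729, minus strand: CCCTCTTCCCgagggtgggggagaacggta
Eef1a2, chr2:181156991-181157020, minus strand: tctgcgttctcgctcactggttCTCTCCCT
Eef1b2, no run, chr1:63176826-63176855, plus strand: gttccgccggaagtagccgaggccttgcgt
Eif2s3x, chrX:94212627-94212656, minus strand: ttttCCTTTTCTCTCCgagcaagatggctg
Eif3f, chr7:108934410-108934439, plus strand: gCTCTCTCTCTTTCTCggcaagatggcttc

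In the mean ratio, 25 of 63 members were called (39.7%), 22 of them positive and 3 negative. Among all genes 33.0% were called, 20.6% positive and 12.4% negative. The members' share was above the background among positive calls (22 of 63) and below it among negative calls (3 of 63). Values as deposited, without subtraction of medians, gave 17 positive and 7 negative calls. The classes differed in their counts: 5 of 6 elongation factor genes were called, all positive, against 14 of 32 initiation factor genes (13 positive and 1 negative) and 6 of 20 synthetase genes (4 positive and 2 negative). The synthetase share of 30.0% was near the background. Neither of the 2 regulators and none of the 3 methyltransferase genes was called.

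In the swap component 11 of 63 members were called (17.5%), all negative, against 9.31% of all genes, 7.94% negative and 1.37% positive. They comprised 8 initiation and 3 elongation factor genes and no synthetase gene, where 4 of 20 had an unadjusted limma p under 0.05. Both quantities were called in 9 genes, either in 27 and neither in 36. With any 1 mouse left out no member and no other gene passed in the swap component, although 19 to 28 members kept an unadjusted p under 0.05. Values as deposited left 2 swap calls, Eif4a2 and Eef2, and with 3.53% of all genes called at that setting the members' share (2 of 63) was no longer above the background. On the Cy5 arrays alone no member and no other gene passed in the ratio (13 members and 1999 genes at an unadjusted limma p under 0.05), while the Cy3 arrays alone gave 28 calls, with 33.7% of all genes called. The calls of the mean ratio, of either sign, were thus not reached without the Cy3 arrays, among members as among all other genes. Of the 63 members, 14 lay above 0 on all 8 arrays, each of them called positive, against 13.2% of all genes. Another 4 of the 63, the genes called negative and Iars2, were below 0 on all 8 arrays, against 7.66% of all genes. The values of Iars2 are averages of 6 probes whose mean ratios had opposite signs.

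**Figure D1:**
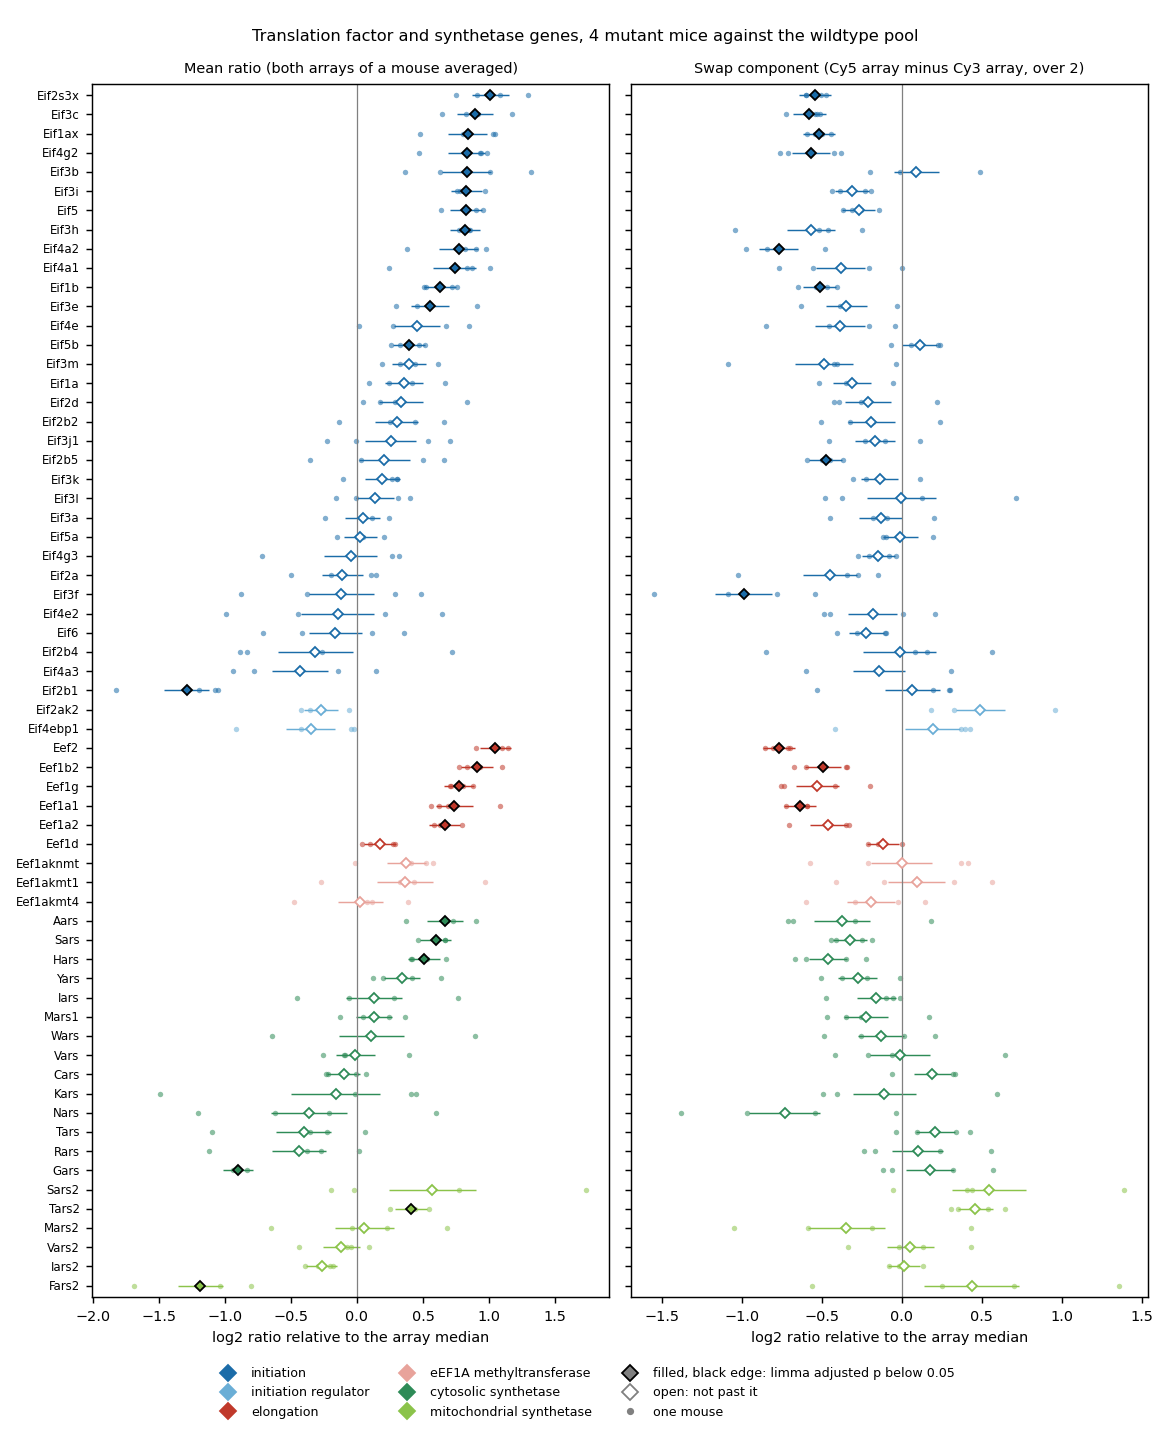
Log2 ratios of the 63 tested genes by class, relative to the array median, as mean ratio (left) and swap component (right). Dots are the 4 mice, diamonds their mean with limma's moderated standard error, filled with a black edge where the adjusted p is below 0.05: 25 genes on the left, 22 of them to the right of 0, and 11 on the right, all left of 0.

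Among the initiation factors, Eif2s3x had the highest mean ratio. It encodes the gamma subunit of eIF2, which binds the initiator tRNA, from the X chromosome. Its log2 ratios were 0.48, 0.40, 0.82 and 0.15 on the Cy5 arrays of mice 1 to 4, against 1.68, 1.41, 1.77 and 1.35 on the Cy3 arrays. All lay above 0, and every Cy3 array was above every Cy5 array. This gave a mean ratio of 1.01 ± 0.139 (limma adjusted p = 0.00548). The swap component was -0.54 ± 0.0995 (adjusted p = 0.0318). Of the other genes of this step, Eif2a had a mean ratio of -0.11 and Eif2d of 0.33, neither called. Eif2s3x has a near-identical copy on the Y chromosome, and its probe may bind both transcripts, which was not tested.

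The 4 measured eIF2B genes, which encode the complex that recharges eIF2 with GTP, did not share a sign. Eif2b1, the regulatory alpha subunit, had the lowest mean ratio of all members, with log2 ratios of -0.77, -1.63, -1.58 and -0.90 on the Cy5 arrays, against -1.38, -2.02, -0.52 and -1.50 on the Cy3 arrays. All 8 values were below 0 and the 2 orientations overlapped. The mean ratio was -1.29 ± 0.17 (limma adjusted p = 0.00524), and it kept its call without each mouse in turn. Its swap component was 0.07 ± 0.17 (adjusted p = 0.815). Eif2b5, the catalytic epsilon subunit, was called in the swap component alone, at -0.48 ± 0.102 (adjusted p = 0.0435), with a mean ratio of 0.21 (adjusted p = 0.443). Eif2b2 had a mean ratio of 0.30 and Eif2b4 of -0.32, and neither passed in either quantity.

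Of the 11 genes of eIF3, the large scaffold on the small ribosomal subunit, 5 were called in the mean ratio, all positive. Eif3c, a core subunit, had log2 ratios of 0.28, -0.08, 0.64 and 0.41 on the Cy5 arrays, against 1.38, 1.37, 1.71 and 1.43 on the Cy3 arrays. The orientations did not overlap, and all values but that of mouse 2 in Cy5 were above 0. The mean ratio was 0.89 ± 0.136 (limma adjusted p = 0.00662) and the swap component -0.58 ± 0.103 (adjusted p = 0.0303).

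Eif3b, another core subunit, gave 0.17, 1.80, 0.9995 and 0.71 on the Cy5 arrays, against 0.57, 0.82, 1.02 and 0.54 on the Cy3 arrays. Unlike in Eif3c, Eif3h and Eif3i, the orientations overlapped. Its mean ratio was 0.83 ± 0.184 (limma adjusted p = 0.0186) and its swap component 0.09 (adjusted p = 0.687), and the call of the mean ratio was lost without mouse 2, without mouse 3, and on values as deposited. Eif3i, which sits beside Eif3b in the complex, had log2 ratios of 0.32, 0.77, 0.58 and 0.40 on the Cy5 arrays, against 1.20, 1.17, 1.03 and 1.17 on the Cy3 arrays. All were above 0 without overlap. Averaged over both arrays the ratio was 0.83 ± 0.117 (adjusted p = 0.00568, lost with runs of 48 spots centred, where it was 0.20), while the swap component was -0.31 (adjusted p = 0.105).

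Eif3h, a subunit of the outer ring, gave 0.61, -0.24, 0.39 and 0.25 on the Cy5 arrays, against 1.10, 1.85, 1.31 and 1.29 on the Cy3 arrays. The Cy3 arrays were all higher, and mouse 2 was both the lowest in Cy5 and the highest in Cy3. Its mean ratio was 0.82 ± 0.113 (limma adjusted p = 0.00548) and its swap component -0.57 ± 0.152 (adjusted p = 0.0657). Eif3e was called at 0.55 ± 0.144 (adjusted p = 0.0309), a call that was lost without mouse 2, 3 or 4 and on values as deposited.

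Eif3f, a subunit with a deubiquitinase-like fold, split by orientation. Its log2 ratios were -0.06, -0.80, -2.43 and -1.15 on the Cy5 arrays, against 1.02, 1.38, 0.67 and 0.40 on the Cy3 arrays. All Cy5 values were below 0 and all Cy3 values above it, and so its mean ratio was -0.12 ± 0.245 (limma adjusted p = 0.732). Its swap component, -0.99 ± 0.18 (adjusted p = 0.0313), was the lowest of all members, followed by Eif4a2 and Eef2 at -0.77 each. Eif3a, Eif3j1, Eif3k, Eif3l and Eif3m passed in neither quantity, with mean ratios of 0.04 to 0.39.

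The eIF4 genes, whose products bind the cap and unwind the leader, included 3 positive calls of 7. Eif4g2 encodes a relative of the eIF4G scaffold that lacks the site for the cap-binding protein. It gave 0.22, 0.23, 0.05 and 0.55 on the Cy5 arrays, against 1.75, 1.65, 0.90 and 1.31 on the Cy3 arrays. No array was below 0, the orientations did not overlap, and both the mean ratio, 0.83 ± 0.14 (limma adjusted p = 0.00854), and the swap component, -0.57 ± 0.118 (adjusted p = 0.0405), were called.

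Eif4a2, the helicase paralog that is prominent in neurons, had log2 ratios of 0.20, -0.59, 0.06 and 0.33 on the Cy5 arrays, against 1.76, 1.36, 1.75 and 1.30 on the Cy3 arrays. The Cy5 values scattered around 0, so that the mean ratio of 0.77 ± 0.146 (limma adjusted p = 0.0117) came from the Cy3 arrays. Its swap component was -0.77 ± 0.121 (adjusted p = 0.0271). Eif4a1, the general helicase, gave 0.28, 0.24, 0.10 and 0.80 on the Cy5 arrays, against 1.39, 0.24, 1.65 and 1.22 on the Cy3 arrays. Mouse 2 alone showed no difference between its arrays, and the mean ratio was 0.74 ± 0.163 (adjusted p = 0.0184, lost without mouse 3 or 4), with a swap component of -0.38 (adjusted p = 0.153). The coding sequences of the helicase paralogs are alike, so their cDNA probes can share signal, which was not tested.

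Among the eIF4 genes without a call, Eif4e, the cap-binding protein itself, had a mean ratio of 0.45 (limma adjusted p = 0.0927), and Eif4a3, the helicase of the exon junction complex, -0.43 (adjusted p = 0.166). The 3 probes of Eif4e on all arrays gave mean ratios of 0.75, 0.43 and 0.17, the first called (single probes, 34.7% called). Their swap components were -0.74, -0.56 and 0.13, the first and second called (single probes, 7.84% called). A further probe of Eif4e, with values on 6 arrays and a mean of -0.57, was left out. Other initiation factor genes without a call and with large values were Eif3m at 0.39, Eif1a at 0.36 and Eif2d at 0.33.

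The genes named eIF1, eIF5 and eIF6, which include the factors of scanning and of subunit joining, held 4 positive calls among 7 genes. Eif1ax, the X-linked gene of eIF1A, a factor of scanning, gave 0.45, 0.26, 0.53 and 0.03 on the Cy5 arrays, against 1.64, 1.35, 1.53 and 0.92 on the Cy3 arrays. All values were above 0 without overlap, and the mean ratio was 0.84 ± 0.146 (limma adjusted p = 0.00916), the swap component -0.52 ± 0.0995 (adjusted p = 0.034). The second gene of eIF1A, Eif1a, had a mean ratio of 0.36 that was not called (adjusted p = 0.102). Eif5, which triggers GTP hydrolysis by eIF2, gave 0.59, 0.76, 0.49 and 0.39 on the Cy5 arrays, against 1.32, 1.05, 1.12 and 0.89 on the Cy3 arrays. In these averages of both probes, every Cy3 value was again the higher. Taken over both orientations, Eif5 stood at 0.83 ± 0.122 (adjusted p = 0.00618), and each probe was positive there (0.93 and 0.73). The probes differed in the swap component, with -0.56 for the first and 0.02 for the second, averaging -0.27 (adjusted p = 0.136). In the second probe the orientations overlapped, with 0.315 to 1.07 on the Cy5 arrays and 0.64 to 0.80 on the Cy3 arrays.

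Eif1b, a paralog of the scanning factor eIF1, passed in both quantities, the mean ratio at 0.63 ± 0.121 (limma adjusted p = 0.0123, lost without mouse 2), the swap component at -0.51 ± 0.103 (adjusted p = 0.0375). Eif5b, the GTPase that joins the large subunit, had a mean ratio of 0.39 ± 0.12 (adjusted p = 0.0498), a call that was lost whichever mouse was left out, on values as deposited (0.23) and with runs of 48 spots centred, where the value was 0.75. Eif6, which keeps the subunits apart, had a mean ratio of -0.16 and was not called. Eif5a, the factor that carries hypusine and helps at stalled peptide bonds, averaged 0.03 from probes that disagreed. It is counted among the initiation factors by its name.

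The regulators had negative mean ratios and positive swap components, none of them called. Eif2ak2 encodes PKR, the kinase that double-stranded RNA activates to phosphorylate eIF2. It ranged from -0.17 to 0.71 on the Cy5 arrays, against -1.22 to -0.38 on the Cy3 arrays, so that all Cy5 arrays were above all Cy3 arrays. Only 1 other member, Tars2, showed this order, which 4.07% of all genes had. The swap component of Eif2ak2 was 0.49 ± 0.153 (limma adjusted p = 0.0888) and its mean ratio -0.27 (adjusted p = 0.142). Eif4ebp1 encodes the repressor that blocks the cap-binding protein. Its mean ratio was -0.35 ± 0.184 (adjusted p = 0.186), while the swap component stood at 0.19 (adjusted p = 0.479).

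Of the elongation factor genes, all but Eef1d were called positive. Eef2 moves the ribosome forward by 1 codon. It gave 0.39, 0.05, 0.45 and 0.23 on the Cy5 arrays, against 1.81, 1.76, 1.84 and 1.85 on the Cy3 arrays. The Cy3 arrays agreed within 0.04 (SD) and all lay above the Cy5 arrays. Its mean ratio of 1.05 ± 0.118 (limma adjusted p = 0.00487) was the highest of all members, and its swap component was -0.77 ± 0.1 (adjusted p = 0.0271). It was measured by 4 probes, whose mean ratios of 0.96, 1.01, 1.06 and 1.16 were each called (single probes, 34.7% called). A gap of 0.20 between the highest and lowest probe was reached or undercut by 3 of the 105 genes with 4 probes, and in 34 of those genes all probes had the same sign.

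Eef1a1 and Eef1a2 encode the GTPase that brings loaded tRNAs to the ribosome, and Eef1a2 replaces Eef1a1 in mature neurons and muscle. Eef1a1 gave 0.49, 0.02, -0.16 and 0.05 on the Cy5 arrays, against 1.68, 1.22, 1.29 and 1.32 on the Cy3 arrays. Eef1a2 gave 0.21, 0.09, 0.28 and 0.25 on the Cy5 arrays, against 1.10, 1.50, 0.98 and 0.91 on the Cy3 arrays. In both genes the orientations did not overlap. The mean of the Cy5 arrays was 0.10 for Eef1a1 and 0.20 for Eef1a2, against 1.38 and 1.12 on the Cy3 arrays. The mean ratio of Eef1a1 was 0.74 ± 0.139 (limma adjusted p = 0.0115) and that of Eef1a2 0.66 ± 0.117 (adjusted p = 0.00946). The swap component was -0.64 ± 0.0993 for Eef1a1 (adjusted p = 0.0271) and -0.46 ± 0.114 for Eef1a2 (adjusted p = 0.0558). Their probes gave 0.37 and 1.11 for Eef1a1, and 0.49 and 0.83 for Eef1a2. The coding sequences are alike, so that signal shared between their probes was not tested, and the difference between the paralogs was not tested either.

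Eef1b2, Eef1d and Eef1g encode the complex that returns eEF1A to its GTP form. Eef1b2, a catalytic subunit, gave 0.10, 0.23, 0.58 and 0.75 on the Cy5 arrays, against 1.45, 1.43, 1.27 and 1.45 on the Cy3 arrays. Eef1g, the structural subunit, gave 0.12, -0.04, 0.60 and 0.29 on the Cy5 arrays, against 1.63, 1.44, 1.001 and 1.13 on the Cy3 arrays. Neither gene showed an overlap between orientations. The mean ratio of Eef1b2 was 0.91 ± 0.122 (limma adjusted p = 0.00536), with a swap component of -0.49 ± 0.114 (adjusted p = 0.0492). The mean ratio of Eef1g was 0.77 ± 0.116 (adjusted p = 0.00639), with a swap component of -0.53 ± 0.134 (adjusted p = 0.0587).

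Eef1d, the other catalytic subunit, stood apart from its partners in the average of its 3 probes. It ranged from -0.05 to 0.16 on the Cy5 arrays, against 0.04 to 0.50 on the Cy3 arrays, and the orientations overlapped. The mean ratio was 0.18 ± 0.12 (limma adjusted p = 0.297), averaged from probes at 0.61, 0.40 and -0.48. The first of these probes was called by itself (limma adjusted p = 0.017), and the others were not. All 5 calls among the elongation factors were kept in the mean ratio without each mouse in turn. All 5 were lost on the Cy5 arrays alone, where no gene passed. The call of Eef1a2 was also lost when values were centred in runs of 48 spots, where its mean ratio was 0.39 and that of Eef1g, still called, 0.47. The 3 genes for methyltransferases of eEF1A had mean ratios of 0.36 (Eef1akmt1), 0.03 (Eef1akmt4) and 0.37 (Eef1aknmt), without a call. The value of Eef1akmt4 came from 1 of its 2 probes. Its other probe had values on 7 arrays, from -3.045 to 0.245 with a mean of -1.79, and was left out.

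**Figure D2:**
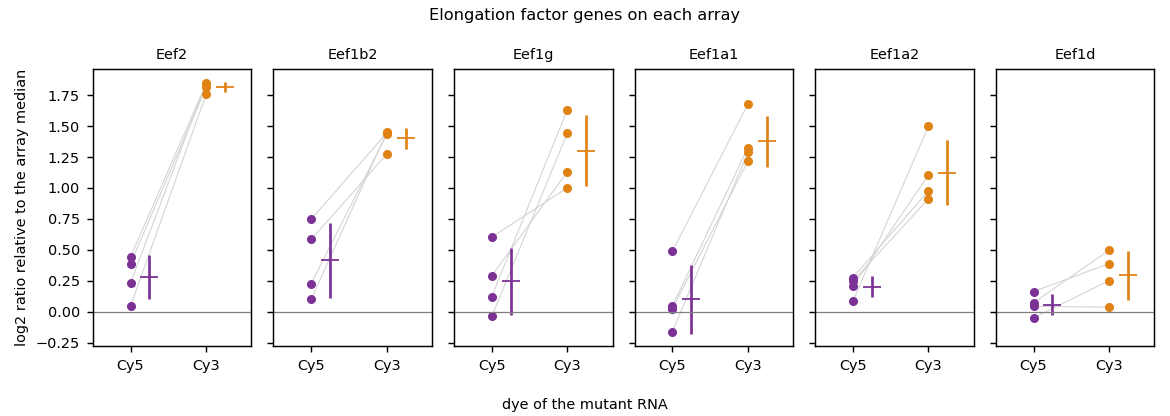
Log2 ratios of the 6 elongation factor genes, relative to the array median, on the arrays with the mutant RNA in Cy5 (purple) and in Cy3 (orange). Dots are arrays, lines join the arrays of a mouse, and bars give the mean ± SD (n = 4). In all genes but Eef1d every orange dot is above every purple one, and Eef2 has the narrowest Cy3 spread (SD 0.04).

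The synthetase genes went both ways. Gars, which charges glycine in cytosol and mitochondria, gave -0.98, -0.36, -1.04 and -0.51 on the Cy5 arrays, against -0.85, -1.51, -0.80 and -1.15 on the Cy3 arrays. All 8 values were below 0 and the orientations overlapped. On average the ratio was -0.90 ± 0.113 (limma adjusted p = 0.00506), kept without each mouse in turn and lost when values were centred in runs of 48 spots, where it was -0.17 (adjusted p = 0.36), and the swap component was 0.18 (adjusted p = 0.46).

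Aars, the alanyl enzyme, gave 0.19, 0.04, 0.38 and 0.56 on the Cy5 arrays, against 1.61, 1.41, 0.97 and 0.19 on the Cy3 arrays. Its values were all positive, with mouse 4 alone higher on its Cy5 array. Its mean ratio of 0.67 ± 0.136 (limma adjusted p = 0.0141) lost its call without mouse 2 or 3, and the swap component was -0.38 (adjusted p = 0.2). Centring of values in runs of 48 spots also ended its call, with a mean ratio of 0.36 (adjusted p = 0.0867). Gars and Aars both carry the element printed above and had opposite signs, a contrast between calls that are both lost with runs of spots centred. The other synthetase genes with the element were not called: Tars had a mean ratio of -0.40, Iars of 0.13 and Yars of 0.34. Eif2s3x, the initiation factor gene with the element, was called in both quantities, as given above.

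Sars, the seryl enzyme, gave 0.22, 0.19, 0.41 and 0.27 on the Cy5 arrays, against 1.11, 1.01, 0.92 and 0.65 on the Cy3 arrays. Hars, the histidyl enzyme, gave 0.08, -0.25, 0.18 and 0.18 on the Cy5 arrays, against 1.27, 1.09, 0.88 and 0.63 on the Cy3 arrays. Each was higher on every Cy3 array than on any Cy5 array. The mean ratio was 0.60 ± 0.117 for Sars (limma adjusted p = 0.0128, lost without mouse 2 or 3) and 0.51 ± 0.12 for Hars (adjusted p = 0.0232, lost whichever mouse was left out, on values as deposited and with runs of 48 spots centred, where it was 0.15). Their swap components were -0.32 for Sars (adjusted p = 0.099) and -0.46 for Hars (adjusted p = 0.0615).

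Of the 6 mitochondrial synthetase genes, Fars2 (phenylalanine) was called negative and Tars2 (threonine) positive. Fars2 gave -0.34, -0.96, -1.37 and -0.34 on the Cy5 arrays, against -1.74, -1.46, -0.24 and -3.05 on the Cy3 arrays. All were below 0, with mouse 4 in Cy3 the lowest, and the mean ratio was -1.19 ± 0.173 (limma adjusted p = 0.00605, kept without each mouse in turn). Tars2 gave 0.71, 1.19, 0.79 and 0.79 on the Cy5 arrays, against 0.10, -0.10, -0.29 and 0.09 on the Cy3 arrays. Here the Cy5 arrays were the higher, without overlap, so that its mean ratio of 0.41 ± 0.12 (adjusted p = 0.044, lost whichever mouse was left out and on values as deposited, where it was 0.25) and its swap component of 0.46 ± 0.112 (adjusted p = 0.0538) were both positive.

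The other 14 synthetase genes passed in neither quantity. Among cytosolic enzymes the largest mean ratios were -0.44 for Rars (arginine), -0.40 for Tars (threonine), -0.36 for Nars (asparagine), 0.34 for Yars (tyrosine) and -0.16 for Kars (lysine). Nars had a swap component of -0.73 ± 0.222 (limma adjusted p = 0.0844), the lowest of the synthetases. Among mitochondrial enzymes Sars2 had a mean ratio of 0.57 ± 0.327 (adjusted p = 0.222), with 3.12 on the Cy5 array of mouse 4 against 0.21 to 0.71 on the Cy5 arrays of the other mice. Iars2, averaged over 6 probes, was below 0 on all 8 arrays, with a mean ratio of -0.27 ± 0.117 (adjusted p = 0.127). Its probes had mean ratios of 0.39, 0.15, 0.09, -0.15, -0.33 and -1.75. The lowest was the only one called as a single probe (limma adjusted p = 0.0297), with -5.004 on the Cy3 array of mouse 1.

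The classes were then set beside each other on each array, as medians over their genes. Elongation factor medians were 0.18, 0.06, 0.36 and 0.24 on the Cy5 arrays of mice 1 to 4, against 1.54, 1.44, 1.14 and 1.23 on the Cy3 arrays. Initiation factor medians were 0.14, -0.00475, 0.10 and 0.07 on the Cy5 arrays, against 0.94, 0.79, 0.57 and 0.47 on the Cy3 arrays. Synthetase medians were 0.08, -0.08, -0.28 and 0.27 on the Cy5 arrays, against 0.40, 0.13, -0.11 and -0.18 on the Cy3 arrays. The elongation median was above the initiation median on 8 of 8 arrays, by 0.05 to 0.26 on the Cy5 arrays and by 0.56 to 0.75 on the Cy3 arrays. Over all spots the Cy3 arrays also spread more widely, with an SD of 1.04 to 1.32 against 0.81 to 0.85 on the Cy5 arrays. Values were not scaled to this spread, and its part in the distances was not tested. The initiation median was above the synthetase median on 7 of 8 arrays, all but the Cy5 array of mouse 4. Against the median of all genes, which was 0.01 to 0.04 on the Cy5 arrays and 0.05 to 0.24 on the Cy3 arrays, elongation factors were higher on 8 arrays, initiation factors on 7 and synthetases on 3. Differences between the classes were not tested.

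**Figure D3:**
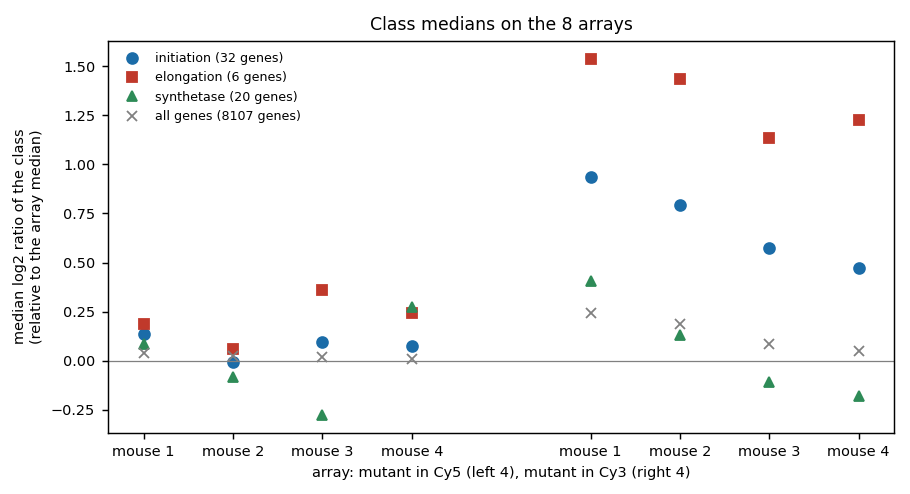
Median log2 ratio, relative to the array median, of 32 initiation factor, 6 elongation factor and 20 synthetase genes and of all 8107 genes on each array, with the mutant RNA in Cy5 (left 4) and in Cy3 (right 4). The elongation median is above the initiation median on all 8 arrays, and the distance is greater on the Cy3 arrays. The Cy3 arrays also have the wider spread over all spots (SD 1.04 to 1.32, against 0.81 to 0.85).

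Over the 4 mice the median mean ratio was 0.76 for elongation factors, 0.34 for initiation factors and 0.02 for synthetases, beside 0.02 for all genes. The median swap component was -0.51, -0.29 and -0.06 in the same classes, beside -0.08 for all genes. Every Cy3 array was above every Cy5 array in 5 of 6 elongation factor genes, 12 of 32 initiation factor genes and 3 of 20 synthetase genes, against 17.7% of all genes. Markers of some cell types showed the same order: medians of the neuron markers did not overlap between orientations, and neither did those of the oligodendrocyte markers (-0.08 to 0.36 on the Cy5 arrays and 0.86 to 1.35 on the Cy3 arrays) or the endothelial marker (0.28 to 0.57 and 1.06 to 1.52). Within the oligodendrocyte list, Mbp and Mag overlapped between orientations. Medians of the astrocyte markers overlapped too (-0.16 to 0.63 on the Cy5 arrays and 0.58 to 1.27 on the Cy3 arrays). So did those of the microglia (-0.72 to 0.23 and -0.41 to 0.48) and blood markers (-1.57 to -0.475 and -2.27 to -0.77). Within these overlapping lists, single markers still had every Cy3 array above every Cy5 array. They were Slc1a3, Glul and Slc1a2 (astrocyte), C1qb (microglia) and Hba-a1 (blood), while the other markers of these lists overlapped. The order was thus shared by the medians of some lists and not of others, and single markers differed within lists. The part of any of them was not tested.

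Probes of a gene did not always agree. Of the 15 members with 2 or more probes on all arrays, 7 had all probes on the same side of 0 and 8 did not, against 53.7% of 2256 genes with the same sign. In 5 members the probes had opposite signs and lay more than 1 log2 unit apart, as in 19.9% of all such genes. These were Eif5a, with called probes at -0.95 and 1.01 (limma adjusted p = 0.00762 and 0.00658), Eif3a at -0.74 and 0.83, Eef1d at -0.48 to 0.61, Eif4g3 at -1.46 to 0.76 over 5 probes, and Iars2 at -1.75 to 0.39 over 6 probes. Their averaged values join opposite values of single probes. Most members, 48 of 63, had 1 probe on all arrays and could not be checked this way. Probes that lack an array were left out here, such as that of Eef1akmt4 with a mean of -1.79.

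**Figure D4:**
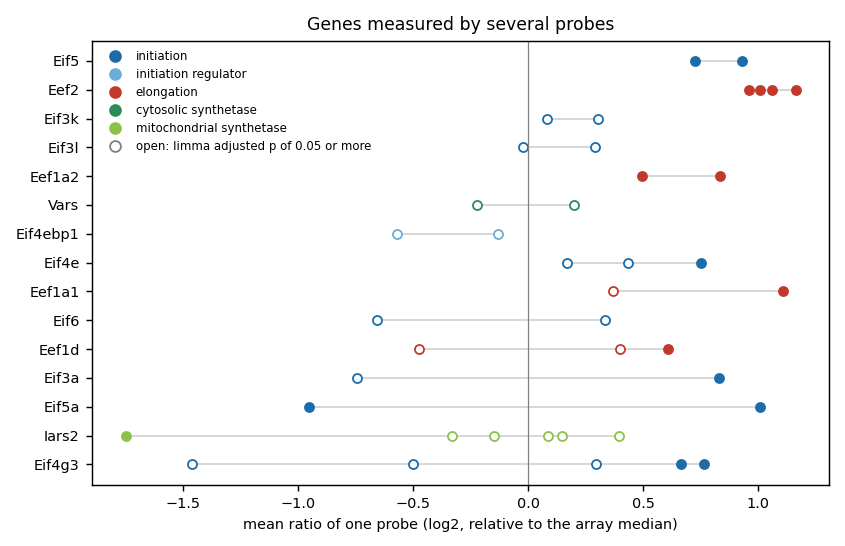
Mean ratio of each probe, as log2 ratio relative to the array median, for the 15 genes with 2 or more probes. Filled dots have a limma adjusted p below 0.05, and a line joins the probes of a gene. The 4 probes of Eef2 lie between 0.96 and 1.16, while those of Eif5a lie at -0.95 and 1.01.

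Other genes of the pathway, listed apart from the symbol rule, were read for the same quantities, against the 20.6% of all genes called positive and 12.4% called negative in the mean ratio. Of 5 measured genes of termination and recycling, 2 were called positive in the mean ratio, Abce1 (ribosome recycling) at 0.57 and Hbs1l (rescue of stalled ribosomes) at 0.54. Mitochondrial translation factors had 1 positive call of 6, a share near the background, the release factor Mtrf1l at 0.69. Of 5 synthetase genes and partners outside the symbol rule, 2 were called positive, Farsb (phenylalanyl beta subunit) at 0.41 and the scaffold Aimp1 at 0.58.

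Regulators of initiation had 8 positive calls and 1 negative of 17. The highest were the RNA helicase Ddx3x at 1.11, Cyfip2, a partner of the fragile X protein, at 1.08, and Rptor, the mTOR partner, at 1.02, and the negative one was Dap at -1.04. In the swap component 6 of the 17 were called, all negative, against 7.94% of all genes called negative in that quantity. Amino acid response genes had 6 positive calls of 16 in the mean ratio, among them Psat1 (serine synthesis) at 0.92 and Atf4, the transcription factor of that response, at 0.53. The median of that list was -0.07, below that of all genes, so its calls in the mean ratio and its median lay on different sides of 0. In the swap component 2 of these 16 genes were called, and 1 of the 5 synthetase genes and partners, all negative. The lists of termination and of mitochondrial factors had no swap call.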

How the data were processed

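The authors deposited log2 ratios of both channels for 20794 spots on 8 arrays, each array shifted by a constant of its own. That the scale is log2 was read from the values, many of which are ratios of small integers. The sources used here name no scanner, background correction, normalisation, numerator or genome build. Per the labels' protocols, column-purified total RNA was labelled indirectly with Cy3 or Cy5. Per the labels the pool held 4 wildtype mice, and the labelling protocol gives another number.

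The arrays held 20211 to 20559 usable values (221 to 553 empty, 1 to 30 at a code for an empty denominator, treated as missing). Depth is unknown, and the number of arrays limits the precision. Each array's median was subtracted, probes with values on all 8 arrays were averaged per gene, and 1 value per mouse was tested against 0, two-sided, with limma's lmFit and eBayes (version 3.58.1, in R 4.3.3). An exact sign-flip test over 4 mice cannot give a p below 1 in 8. The pool is 1 control sample, so the tests leave out the spread between wildtype mice. No label says more of the mice than that they are separate animals.

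Names came from the platform annotation shifted by 11 spots, up to spot 20000, because probes of a gene then resembled each other more than at other shifts. Over 2256 genes rho was 0.28 in the mean ratio, against 0.01 without a shift, and the next highest of 201 shifts gave 0.09. The agreement was limited: of 1698 genes with 2 probes, 1008 (59.4%) had both on the same side of 0. The shift was inferred from the values and was not checked against the layout of the array. All 64 members were found in RefSeq by gene identifier. The members, lists and tests were chosen with earlier results of these data known. The genes named were all those called, every elongation factor gene, genes whose probes opposed each other by over 1 log2 unit, and up to 5 uncalled genes per class with the largest mean ratio. Values on every array were given for the called genes with the largest values in their class. The fit was tested on simulated data.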

Additional observations from a re-analysis of the deposited data

Results flagged for a closer look

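A total of 4 mouse values lay far from the other 3 of their gene by Dixon's test for an outlying value, in 56 sets of 4 mice examined. Chance flags about 1 in 20 such sets. Eif4g2 had a mean ratio of 0.47 in mouse 3, against 0.93 to 0.99 in the other mice, and kept its call without mouse 3. Gars had a mean ratio of -0.83 in mouse 4, against -0.94 to -0.92 in the others, a narrow spread in which a small gap counts. Eif2b1 had a swap component of -0.53 in mouse 3, against 0.19 to 0.30 in the others, since its Cy3 array of that mouse, at -0.52, was less negative than its Cy5 array. Eif3c had a swap component of -0.73 in mouse 2, against -0.55 to -0.51 in the others.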

How the results depend on the processing

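In the mean ratio 25 members were called (22 positive, 3 negative), against 24 on values as deposited (17 positive, 7 negative), where 5 of the 25 were lost, and of all genes 1122 of 2672 calls were then positive, against 1668 of 2676, with their median at -0.14, against 0.02. Single probes gave 5 negative calls. Names at the same spot number, under which other spots carry the names, gave 27 calls, 12 positive and 15 negative. The Cy5 arrays alone gave 0 calls, 0 positive and 0 negative. Leaving out each mouse gave 17 to 23 calls, 14 to 19 of them positive, fewest without mouse 2 or 3, and 16 calls were kept throughout.

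In the swap component 11 members were called, against 2 on values as deposited and 3 with names at the same spot number, all negative, and 0 whichever mouse was left out. Over all genes, 87 of 286 swap calls were positive as deposited, against 111 of 755, with their median at 0.03, against -0.08. A single positive call, 1, appeared with probes kept that lack an array, with runs of 48 spots centred and with whole-number ratios treated as missing.

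The median mean ratio of initiation factors was 0.18 as deposited and -0.27 with names at the same spot number, that of elongation factors 0.59 and -0.34, and 0.83 over single probes. The median swap component of initiation factors was -0.18 as deposited and 0.057 with names at the same spot number, that of elongation factors 0.10 with those names. Reversed were the mean ratio of Eif4a2 on the Cy5 arrays alone (-0.0021) and that of Tars2 on the Cy3 arrays alone (-0.05). Beyond the construction of each alternative, the cause was not tested. The swap component paired the 2 arrays of each mouse. No pairing of mutant with wildtype mice was possible, because all samples form 1 group set against 1 pool. Spot intensities were not used here, so signal over background could not be weighed.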
